A study of Mus musculus with 12 samples.

Results

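Gene expression was compared between the resting and the growth phase of the hair cycle in wild-type hair follicle stem cells, over 3 early telogen and 3 anagen libraries out of 12 in the series. The members were all libraries labelled wild type (WT), taken from a pair of deposited count tables, one for each phase, and genes had to be named in both tables. The cells came from mouse back skin and were sorted as positive for H2BGFP, CD34 and CD49f and negative for Sca-1. All mice carried K14-H2BGFP, a green fluorescent histone under the keratin 14 promoter, and floxed Foxc1 alleles. WT mice had no Cre, and knockout (KO) mice carried K14Cre, a recombinase driven in the basal layer of the epidermis and follicle. Thus the WT cells were Foxc1 fl/fl cells with an intact gene, not cells without engineered alleles.

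The anagen WT libraries were replicate 1 (P29, female), replicate 2 (P30, male) and replicate 3 (male, titled P31 but with an age label of 43 days). The early telogen WT libraries were replicates 1 and 3 (female) and replicate 4 (male), all at 47 days. Anagen KO replicates 1 and 2 were female, at 29 and 31 days. Early telogen KO replicates 1, 3 and 5 (female) and 2 (male) were labelled 47 days, with replicate 5 titled P43. These 6 KO libraries served for checks of levels, for a fit of all 12 libraries and for a test of the WT against the KO stage change. No animal is named in the labels used here. The anagen WT libraries differed from each other in sex or day, and early telogen WT held both sexes, so such libraries were not from the same animal. For early telogen WT replicates 1 and 3, of the same sex and day, the labels leave this open. The p-values measure the spread between these samples, part of which may be technical.

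Hair follicles cycle through anagen, when the hair shaft grows, regression, and telogen, when growth stops. The bulge, a niche in the outer layer of the follicle, holds stem cells that divide for a short time in anagen and return to quiescence. In the literature on this niche, BMP signals hold the cells quiescent, WNT signals and BMP inhibitors go with activation, and an inner layer of keratin 6-positive cells next to the stem cells supplies BMP6 and FGF18.

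Counts over shared genes were 52692280, 31384534 and 30237920 in anagen replicates 1, 2 and 3, and 11189759, 10775621 and 6123721 in early telogen replicates 1, 3 and 4. Levels are CPM, counts scaled to these totals. The anagen table alone held 872 names, with Per2, Plk1 and Postn among them, and these were not analysed here. The labelled cell type was checked against bulge markers: Cd34 was at 364, 782 and 566 CPM in anagen and 648, 846 and 788 CPM in early telogen, and Krt15 at 4798, 9599 and 7328 CPM in anagen and 9626, 7336 and 9998 CPM in early telogen. Sca-1 is encoded by Ly6a, which was at 2.13 to 8.85 CPM in the 6 libraries. Foxc1 was read in every WT library, at 35.8, 119.8 and 48.8 CPM in anagen and 43.9, 59.2 and 61.2 CPM in early telogen, and its stage difference did not pass (log2 fold change -0.18 ± 0.47, edgeR adjusted p = 0.804). In KO cells Foxc1 was at 0.249 ± 0.0507 CPM in anagen (n = 2) and 1.86 ± 1.03 CPM in early telogen (n = 4).

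Stage and table cannot be told apart, and the tables differed in a way that followed transcript length. Among 455 protein-coding genes with transcripts of up to 1000 bases the median log2 fold change was -0.92, and among 1112 genes with transcripts of over 7000 bases it was 0.46. Across 12623 genes with a length the rank correlation of log2 fold change with length was 0.31, a description in which all genes share the same libraries. A second fit therefore removed the length trend of each library with offsets, an alternative added after the data were seen, which left a correlation of 0.012. Classes of RNA differed too. The 70 clustered histone genes summed to 223 to 598 CPM in anagen WT and to 12.2 to 15.7 CPM in early telogen WT, and the KO libraries stood at 359 and 1537 CPM against 17.9 to 28.1 CPM. The microRNA gene mmu-mir-6236 was at 120.2, 149 and 119 CPM in anagen and at 0 in all early telogen libraries, KO included. The part of library preparation or sequencing in these differences was not tested.

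**Figure D1:**
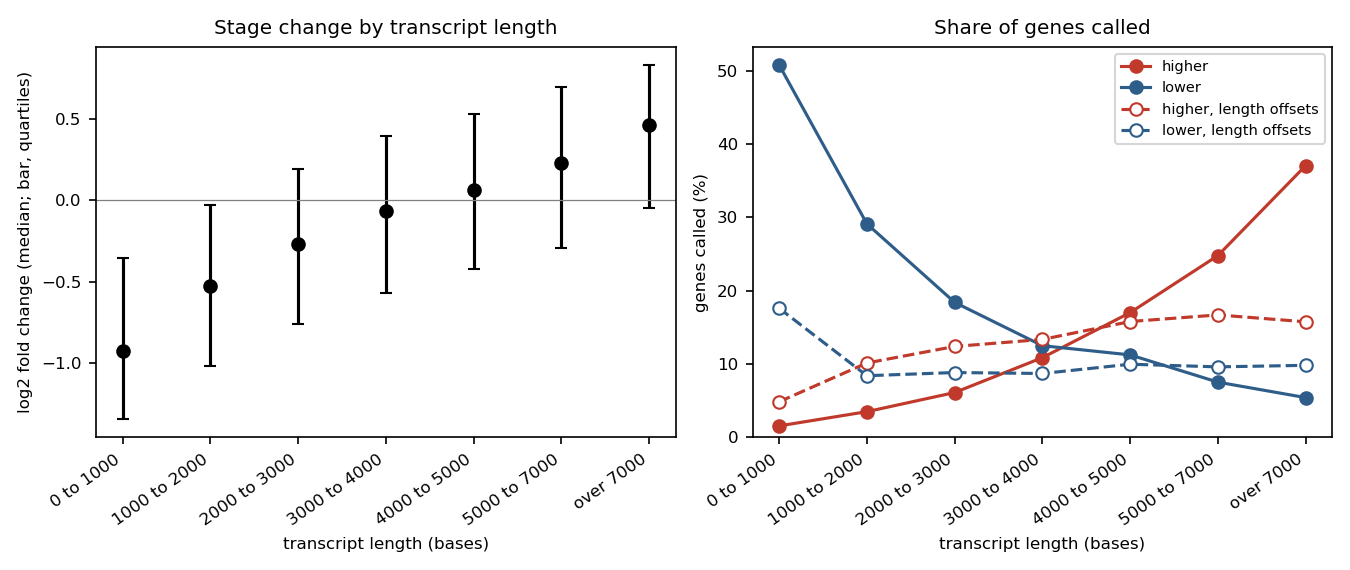
The left panel plots the median log2 fold change (early telogen minus anagen, bars for quartiles) of protein-coding genes in 7 bins of transcript length in bases, and the right panel the percentage of genes called in each bin, with filled points for the fit as planned and open points for the fit with length offsets. The share called lower falls from 50.8% to 5.40% and the share called higher rises from 1.54% to 37.1% over the bins in the planned fit, and both are flatter with offsets, at 17.6% to 9.80% and 4.84% to 15.7%.

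Of 12718 genes tested with edgeR's quasi-likelihood test, 1724 (13.6%) were higher in early telogen and 2024 (15.9%) were lower at an adjusted p under 0.05, 29.5% in all. The split was 46.0% higher among all calls and 59.0% with length offsets, where 1698 genes (13.4%) were higher and 1181 (9.29%) lower. Both fits shared 1313 higher and 1095 lower calls, and none had opposite directions. The groups did not overlap for 48.5% of genes, with early telogen above for 16.6% and below for 31.9%. Of the calls, 755 higher and 1286 lower were at least 1 on the log2 scale, and 1793 passed in all 6 fits that dropped a library. The counts were 1120 higher and 1275 lower without early telogen replicate 3, and 1055 and 1257 without early telogen replicate 4. The median log2 fold change over all genes tested was -0.10, the value against which the gene lists below are set. The counts within lists are read against the shares of 13.6% higher and 15.9% lower. Of the 28 lists other than markers of other cells, 6 were at or below both shares. These were the lists for WNT, epidermal differentiation, isthmus with sebaceous gland, interferon, dissociation, and sterol and fatty acid genes. The first principal component held 56.4% of the variance and separated the stages, and the second, with 19.3%, set early telogen replicate 1 (-63.4) against replicate 3 (62.3).

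**Figure D2:**
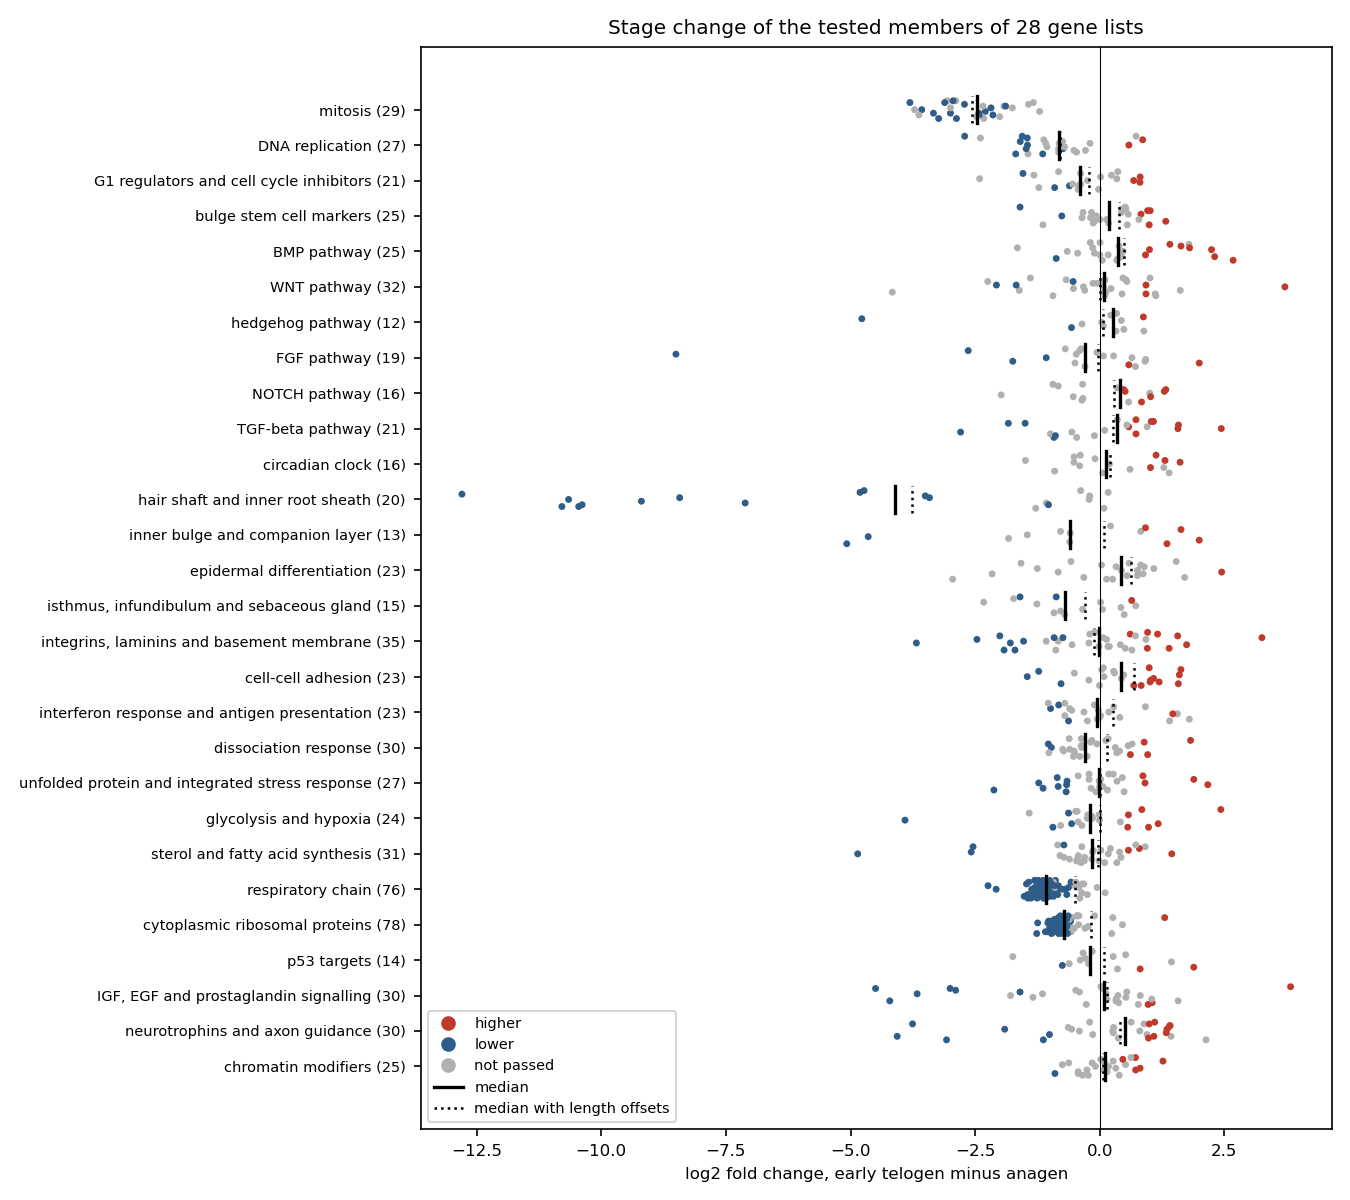
Each point is a tested member of one of 28 gene lists, placed by its log2 fold change (early telogen minus anagen) and coloured by its call, with the number tested in parentheses. Solid lines mark the list medians, from -4.11 for hair shaft and inner root sheath genes and -2.47 for mitosis genes to 0.50 for neurotrophin and axon guidance genes, and dotted lines the medians with length offsets.

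Cell division genes were lower in early telogen. Of 29 tested mitosis genes, 15 fell and 14 did not pass, all 29 values were negative, and the median was -2.47 against -0.10 for all genes, with -2.56 and 16 lower with length offsets. Ube2c, the ubiquitin-conjugating enzyme of the anaphase-promoting complex, was at 19.96, 9.05 and 4.56 CPM in anagen and 1.07, 0.557 and 0.9798 CPM in early telogen (log2 fold change -3.57 ± 0.60, edgeR adjusted p = 0.00386). Cenpa, the centromeric histone H3 variant, was at 25.5, 10.6 and 16.9 CPM in anagen and 1.79, 0.835 and 3.27 CPM in early telogen (log2 fold change -3.11 ± 0.49, edgeR adjusted p = 0.00316). Every early telogen library was below every anagen library for both. Anagen replicate 1 was the highest. The spindle checkpoint gene Mad2l1 (-2.94 ± 0.53) and the spindle assembly factor Tpx2 (-3.23 ± 0.66) fell as well, with edgeR adjusted p of 0.00425 and 0.00804. Mki67, which encodes the proliferation antigen Ki-67, was at 84.1, 26.96 and 12.9 CPM in anagen and 8.58, 5.66 and 8.49 CPM in early telogen, without overlap, and just missed the threshold (edgeR adjusted p = 0.051). The summed level of mitosis genes was 563, 211 and 136 CPM in anagen and 63.4, 35.8 and 75.4 CPM in early telogen, with a wider spread within anagen than within early telogen. The count of lower genes was 9 without anagen replicate 1, 9 without early telogen replicate 1 and 8 without early telogen replicate 3. It was 1 with a filter at a mean of at least 10 CPM, which leaves genes of low level untested. With DESeq2 it was 24, and in a fit of all 12 libraries 22.

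Promoters of named mitosis genes are shown because these genes fell together. The sequences are RefSeq's (build GRCm38.p6), from 250 bases before to 50 bases after the start, read 5′ to 3′ on the gene's strand, for Cenpa (chr5:30666636-30666935, plus), Ube2c (chr2:164769679-164769978, plus) and Mad2l1 (chr6:66534971-66535270, plus). Capitals mark the letters CCAAT and TTTGAA, known from cell cycle promoters as the CCAAT box and the CHR element, on either strand within the first 250 bases. Matches at -186 and -183 in Ube2c overlap by 2 letters.
Cenpa: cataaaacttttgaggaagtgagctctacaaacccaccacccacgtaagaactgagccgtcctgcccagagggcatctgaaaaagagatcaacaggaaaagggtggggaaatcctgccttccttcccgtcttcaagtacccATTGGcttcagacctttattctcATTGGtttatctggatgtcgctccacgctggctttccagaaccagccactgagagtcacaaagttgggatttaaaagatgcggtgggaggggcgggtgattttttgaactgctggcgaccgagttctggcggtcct
Ube2c: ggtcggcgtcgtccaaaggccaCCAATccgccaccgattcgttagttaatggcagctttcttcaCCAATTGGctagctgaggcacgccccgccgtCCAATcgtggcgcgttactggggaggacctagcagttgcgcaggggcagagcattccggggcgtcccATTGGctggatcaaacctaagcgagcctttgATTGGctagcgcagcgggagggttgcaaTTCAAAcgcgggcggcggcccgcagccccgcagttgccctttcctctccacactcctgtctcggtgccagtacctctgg
Mad2l1: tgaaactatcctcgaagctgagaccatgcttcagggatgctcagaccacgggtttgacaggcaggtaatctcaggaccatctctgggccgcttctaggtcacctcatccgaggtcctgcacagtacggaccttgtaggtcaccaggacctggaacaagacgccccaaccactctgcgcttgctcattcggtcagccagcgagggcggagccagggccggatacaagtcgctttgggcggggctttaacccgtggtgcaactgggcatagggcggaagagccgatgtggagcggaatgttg
Ube2c held 6 CCAAT matches and 1 TTTGAA match, at -29 to -24 from the start, Cenpa held 2 CCAAT matches, and Mad2l1 held neither motif in this window. TTTGAA also occurs in the Cenpa sequence after the start, outside the 250 bases searched, and is not in capitals there. The shares that follow cover those 250 bases only and leave out such matches. Of 25 tested mitosis genes with an entry, 20 (80.0%) held CCAAT and 9 (36.0%) held both motifs. Over all 27025 genes of the promoter table these shares were 37.5% and 6.45%. Such matches describe letters, and binding was not measured.

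Replication genes fell in smaller numbers. Of 27 tested DNA replication genes, 9 fell and 2 rose, with a median of -0.83. Tk1, the thymidine kinase of the salvage pathway, was at 22.1, 10.04 and 5.49 CPM in anagen and 1.34, 1.95 and 1.96 CPM in early telogen (log2 fold change -2.71 ± 0.54, edgeR adjusted p = 0.00686). Gins2, a subunit of the replicative helicase, was at 14.9, 8.95 and 9.46 CPM in anagen and 3.31, 3.43 and 3.27 CPM in early telogen (log2 fold change -1.59 ± 0.32, edgeR adjusted p = 0.00623). The lower genes numbered 4 without anagen replicate 1, 5 without anagen replicate 2 and 5 with length offsets, where 3 were higher. None was higher without anagen replicate 3 or any 1 early telogen library. Summed levels of the list overlapped, at 820, 592 and 491 CPM in anagen and 583, 607 and 562 CPM in early telogen. Pcna, the sliding clamp of replication, went the other way, at 224, 218 and 169 CPM in anagen and 273, 293 and 266 CPM in early telogen (log2 fold change 0.59 ± 0.18), but lost its call without anagen replicate 3 (0.064) or early telogen replicate 1, 3 or 4 (0.0506, 0.128 and 0.0872). Among 21 G1 regulators and inhibitors, 3 rose and 3 fell, and 1 fell without anagen replicate 1 or early telogen replicate 3. Cdk4, the kinase partner of D cyclins, was at 167, 161 and 142 CPM in anagen and 57.6, 40.2 and 50.1 CPM in early telogen (log2 fold change -1.54 ± 0.16, edgeR adjusted p = 0.000595), with every early telogen library far below anagen. Cdkn1a, encoding the CDK inhibitor p21, rose by 0.81 and Myc by 0.81 on the log2 scale, and both calls ended without early telogen replicate 3 (edgeR adjusted p = 0.0672 and 0.072). The retinoblastoma gene Rb1 rose by 0.68, a call lost without early telogen replicate 3 (0.0775) or 4 (0.0696). Ccnd1 (-0.02) and Cdkn1b (-0.54) did not pass.

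Of 25 bulge stem cell markers, 5 rose, 2 fell and 18 did not pass, with a median of 0.18 (7 higher and 1 lower with length offsets, and 9 higher without anagen replicate 3). Nfatc1, a calcium-regulated transcription factor of quiescent bulge cells, was at 165, 194 and 243 CPM in anagen and 282, 377 and 440.3 CPM in early telogen (log2 fold change 1.01 ± 0.22, edgeR adjusted p = 0.00921). Foxp1, a forkhead factor linked to stem cell quiescence, was at 144, 158 and 175 CPM in anagen and 256, 311 and 293 CPM in early telogen (log2 fold change 0.99 ± 0.17, edgeR adjusted p = 0.00368). Both were higher in every early telogen library, as were the growth factor Ptn (1.32 ± 0.22) and the hemidesmosome collagen Col17a1 (0.96 ± 0.21). Lrig1, a feedback inhibitor of EGF receptors and a marker of the upper follicle, was at 258, 110.4 and 239 CPM in anagen and 67.7, 52.6 and 62.1 CPM in early telogen (log2 fold change -1.60 ± 0.29, edgeR adjusted p = 0.00522), so that it was lower in every early telogen library. Tcf7l1, a WNT-regulated repressor, fell by 0.76 on the log2 scale, and its call ended without anagen replicate 3 (0.0796), early telogen replicate 1 (0.0872) or 4 (0.0886) and with length offsets (0.116). The lineage factors Sox9 (0.57) and Lhx2 (-0.10), the receptor Lgr5 (0.45), Cd34 (0.55), Krt15 (0.44) and Krt14 (0.51) did not pass, and Itga6, which encodes CD49f of the gate, was at 734, 633 and 911 CPM in anagen and 763, 722 and 789.9 CPM in early telogen.

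BMP genes were higher in early telogen at several levels of the pathway. Of 25 tested, 8 rose and 1 fell, with a median of 0.37 (9 and 0 with length offsets). Bmp2 (chromosome 2, 133552159 to 133562885), a secreted ligand, was at 43.5, 51.97 and 50.4 CPM in anagen and 272, 291 and 285 CPM in early telogen (log2 fold change 2.68 ± 0.17, edgeR adjusted p = 7.51e-05). Within each stage the 3 libraries lay close together, and the groups were far apart. Secreted antagonists rose too. Nog, which encodes noggin, was at 6.96, 18.6 and 17.03 CPM in anagen and 43.7, 68.6 and 69.9 CPM in early telogen (log2 fold change 2.24 ± 0.40, edgeR adjusted p = 0.00668). Fst, which encodes follistatin, was at 907, 899 and 1440.4 CPM in anagen and 2393, 4338 and 2269 CPM in early telogen (log2 fold change 1.63 ± 0.33, edgeR adjusted p = 0.00711). Neither gene overlapped between stages. Grem1, another secreted antagonist, was at 53.04, 203 and 151 CPM in anagen and 370.2, 842 and 599 CPM in early telogen (log2 fold change 2.31 ± 0.57, edgeR adjusted p = 0.0269), but its call ended without anagen replicate 3 (0.0861), early telogen replicate 3 (0.0701) or 4 (0.0716). On the receiving side, the type II receptor Bmpr2 was at 30.3, 21.98 and 26.2 CPM in anagen and 66.9, 54.4 and 68.7 CPM in early telogen (log2 fold change 1.41 ± 0.18, edgeR adjusted p = 0.00124). The signal transducer Smad9 was at 2.24, 3.92 and 5.16 CPM in anagen and 10.5, 14.1 and 10.9 CPM in early telogen (log2 fold change 1.80 ± 0.36, edgeR adjusted p = 0.00637). Early telogen lay above anagen for both genes. Bmp6 was at 40.6, 48.8 and 44.4 CPM in anagen and 51.4, 88.4 and 88.7 CPM in early telogen (log2 fold change 0.92 ± 0.24), with edgeR adjusted p of 0.02, rising to 0.198 in a fit of all 12 libraries, 0.0558 without anagen replicate 1, 0.0787 without early telogen replicate 3 and 0.0795 without replicate 4. The antagonist Sostdc1 was the lower member (-0.87 ± 0.24), a call lost with length offsets (edgeR adjusted p = 0.298) and without anagen replicate 2 or early telogen replicate 1, 3 or 4. The higher genes numbered 5 without early telogen replicate 3 or 4.

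**Figure D3:**
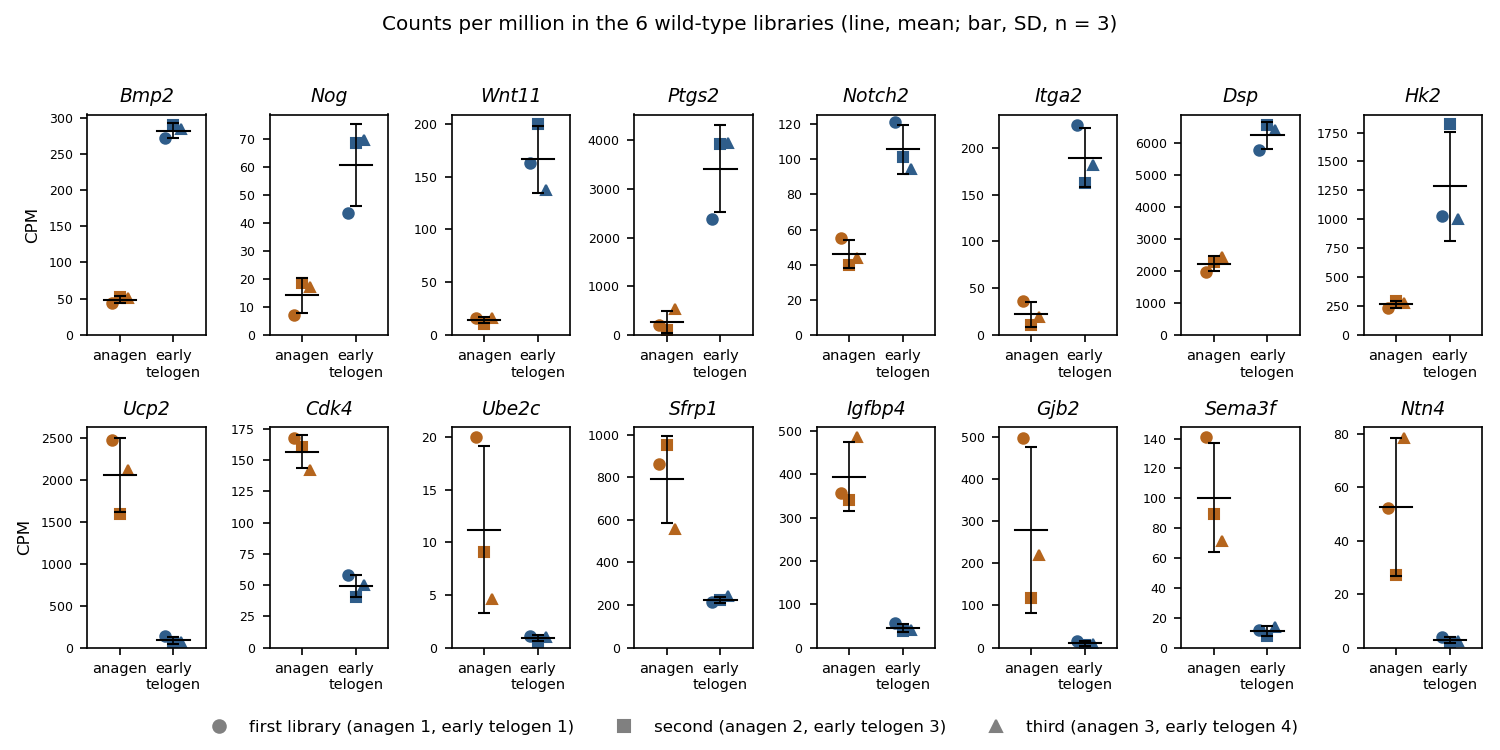
CPM of 16 genes in each of the 6 wild-type libraries, on linear axes from 0, with points for libraries, a line for the mean and a bar for the SD (n = 3). The upper row holds genes that were higher in early telogen, such as Bmp2 at 272 to 291 CPM against 43.5 to 52.0 CPM, and the lower row genes that were lower, such as Ucp2 at 61.5 to 134 CPM against 1593 to 2475 CPM.

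Of 32 WNT genes tested, 3 rose, 3 fell and 26 did not pass, with a median of 0.08. These shares lie below the 13.6% and 15.9% of all genes. Wnt11 (chromosome 7, 98835112 to 98855195), a ligand known mainly from noncanonical signalling, was at 16.1, 10.4 and 15.6 CPM in anagen and 163, 199 and 137 CPM in early telogen (log2 fold change 3.71 ± 0.24, edgeR adjusted p = 7.51e-05). The lowest early telogen value lay far above the highest anagen value. Sfrp1, a secreted inhibitor that binds WNT ligands, was at 862, 951 and 558 CPM in anagen and 212, 224 and 240.4 CPM in early telogen (log2 fold change -1.68 ± 0.23, edgeR adjusted p = 0.00155), without overlap. Axin2, a feedback target of beta-catenin, was at 7.19, 8.57 and 6.45 CPM in anagen and 13.5, 11.9 and 13.2 CPM in early telogen (log2 fold change 0.93 ± 0.24, edgeR adjusted p = 0.0183). Its call ended without early telogen replicate 3 (0.05001) or 4 (0.068), and that of the ligand Wnt7b (0.93) without early telogen replicate 4 (0.0591). The secreted inhibitor Wif1 was at 11.9, 22.4 and 11.4 CPM in anagen and 23.2, 20.8 and 40.7 CPM in early telogen and did not pass (edgeR adjusted p = 0.0603). It did pass with length offsets (0.0233), all 12 libraries (0.0247), sex as a covariate (0.0209), no filter on low counts (0.0166) and thinning (0.0493). It also passed without anagen replicate 2 (0.0163) and with DESeq2 (DESeq2 adjusted p = 0.0139). It did not pass with RLE or upper-quartile factors, with the filter at a mean of at least 10 CPM or without any other library. The higher genes numbered 5 without anagen replicate 2 or early telogen replicate 1, and 1 without early telogen replicate 4. A single gene was lower without anagen replicate 2 or early telogen replicate 3 or 4.

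Among 12 hedgehog genes 1 rose (2 without anagen replicate 3) and 2 fell (1 without anagen replicate 1 or 3 or early telogen replicate 1 or 3). The hedgehog target Gli1 was at 54.8, 27.4 and 35.5 CPM in anagen and 44.8, 28.3 and 40.2 CPM in early telogen and did not pass. The co-receptor Cdon rose (log2 fold change 0.88 ± 0.17, edgeR adjusted p = 0.00596). Of 19 FGF genes 2 rose and 4 fell, and the lower count was 1 or 2 in every fit that dropped a library except anagen replicate 2. None was higher without anagen replicate 2 or early telogen replicate 1 or 3. Fgf5, the ligand known for ending anagen in mice, was at 3.74, 1.18 and 0.8599 CPM in anagen and 0, 0 and 0 CPM in early telogen, at least 21.3-fold lower in early telogen when 3 counts over the group are taken as the floor. Fgf5 passed the filter on low counts through anagen alone, so a fall was the only possible direction. Fgf18, a ligand of the inner bulge, was at 1.52, 4.14 and 6.22 CPM in anagen and 22.97, 12.2 and 7.84 CPM in early telogen (log2 fold change 1.996 ± 0.56, edgeR adjusted p = 0.0312). Its groups did not overlap, and its call ended without anagen replicate 2 (0.0871), early telogen replicate 1 (0.0869) or 3 (0.0695) and with sex as a covariate (0.0905). Etv4, a transcription factor induced by FGF signals, was at 34.7, 6.31 and 30.6 CPM in anagen and 3.22, 2.78 and 4.57 CPM in early telogen (log2 fold change -2.64 ± 0.63), and its call was lost without any 1 of the early telogen libraries (0.0809, 0.08 and 0.0591 without replicates 1, 3 and 4).

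NOTCH genes rose where they passed, 6 of 16 with a median of 0.42 (5 with length offsets, and 2 lower without anagen replicate 2). The receptor Notch2 was at 55.3, 39.99 and 43.7 CPM in anagen and 121, 101 and 94.5 CPM in early telogen (log2 fold change 1.33 ± 0.17, edgeR adjusted p = 0.00137). Its ligand Jag1 was at 678, 296 and 588 CPM in anagen and 1365, 948 and 1182 CPM in early telogen (log2 fold change 1.30 ± 0.28, edgeR adjusted p = 0.0102). Every early telogen library lay above every anagen library in both cases, but the call for Jag1 ended in a fit of all 12 libraries (0.0659). Rbpj, the DNA-binding partner of the cleaved receptor, rose by 0.84 ± 0.15, and Lfng, which adds sugars to the receptor, by 1.02 ± 0.18. In the TGF-beta pathway 8 of 21 rose and 5 fell (6 and 6 with length offsets). Ltbp2, of the latent TGF-beta binding family, was at 45.9, 47.8 and 89.3 CPM in anagen and 306, 357 and 232 CPM in early telogen (log2 fold change 2.44 ± 0.30, edgeR adjusted p = 0.00141). A relative, Ltbp4, was at 905, 550 and 1066 CPM in anagen and 339, 223 and 252 CPM in early telogen (log2 fold change -1.50 ± 0.25, edgeR adjusted p = 0.00322). These 2 genes went in opposite directions, and neither overlapped between stages. Ctgf, a matricellular protein, rose by 1.57 ± 0.28. Ligands split as well: Tgfb2 rose by 1.58 ± 0.32 and Tgfb1 fell by 0.92 on the log2 scale. The lower genes numbered 3 without anagen replicate 1, early telogen replicate 3 or early telogen replicate 4.

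Prostaglandin, IGF and EGF genes included large single changes, although only 3 of 30 rose and 6 fell. Ptgs2 (chromosome 1, 150100031 to 150108227), the inducible cyclooxygenase of prostaglandin synthesis, was at 196, 91.6 and 519.8 CPM in anagen and 2379, 3926 and 3949 CPM in early telogen (log2 fold change 3.83 ± 0.68, edgeR adjusted p = 0.00905). The highest anagen value lay far below the lowest early telogen value. Igfbp4, a secreted binding protein that restrains IGFs, was at 358, 341 and 486 CPM in anagen and 55.9, 37.6 and 41.5 CPM in early telogen (log2 fold change -3.002 ± 0.21, edgeR adjusted p = 0.000107). The EGF receptor ligand Areg was at 35.5, 18.3 and 47.99 CPM in anagen and 3.31, 0.557 and 3.76 CPM in early telogen (log2 fold change -3.66 ± 0.63, edgeR adjusted p = 0.00708). A related ligand, Epgn, was at 453, 176 and 189 CPM in anagen and 48.5, 10.3 and 43.8 CPM in early telogen (log2 fold change -2.89 ± 0.68). Both were without overlap between stages. The call for Epgn ended without anagen replicate 1 (0.0572) or early telogen replicate 4 (0.0632). The lower genes numbered 3 without early telogen replicate 4 and the higher genes 1 without early telogen replicate 1.

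Axon guidance and neurotrophin genes, which in skin encode cues for nerves and neighbouring cells, held 8 higher and 6 lower members of 30, with a median of 0.50. With length offsets 6 were higher and 5 lower. The netrin Ntn4 was at 52.2, 27.1 and 78.6 CPM in anagen and 3.93, 2.23 and 2.29 CPM in early telogen (log2 fold change -4.06 ± 0.42, edgeR adjusted p = 0.00119). The semaphorin Sema3f was at 141, 89.6 and 71.04 CPM in anagen and 11.8, 7.42 and 13.9 CPM in early telogen (log2 fold change -3.07 ± 0.31, edgeR adjusted p = 0.000724). The receptor Ephb1 (-3.76 ± 0.46) and the low-affinity neurotrophin receptor Ngfr (-1.91 ± 0.25) fell as well, at edgeR adjusted p of 0.00136 and 0.00137. Other guidance genes were higher. Sema3e was at 107, 105 and 78.7 CPM in anagen and 185, 265 and 212 CPM in early telogen (log2 fold change 1.33 ± 0.21, edgeR adjusted p = 0.00271). The semaphorin receptor Nrp2 was at 7.86, 6.21 and 6.32 CPM in anagen and 15.4, 15.9 and 16 CPM in early telogen (log2 fold change 1.35 ± 0.23, edgeR adjusted p = 0.00346). Early telogen was above anagen in every library for these genes. The higher genes numbered 5 without early telogen replicate 4.

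Attachment genes changed in both directions. Of 35 integrin, laminin and basement membrane genes, 8 rose and 9 fell, with a median of -0.02. Itga2, the collagen-binding integrin subunit, was at 36.3, 10.5 and 18.6 CPM in anagen and 225, 163 and 182 CPM in early telogen (log2 fold change 3.25 ± 0.44, edgeR adjusted p = 0.00368). Laminin chain genes were called in both directions. Lama3 was at 683, 309 and 565 CPM in anagen and 1708, 1449.8 and 1578 CPM in early telogen (log2 fold change 1.74 ± 0.27, edgeR adjusted p = 0.00235). Lamb3 was at 411, 467 and 451 CPM in anagen and 1012, 859 and 839 CPM in early telogen (log2 fold change 1.16 ± 0.17, edgeR adjusted p = 0.00183). No early telogen library overlapped an anagen library for either gene. Lamb1 went the other way, at 356, 69.6 and 188 CPM in anagen and 39.5, 28.6 and 32.99 CPM in early telogen (log2 fold change -2.46 ± 0.56, edgeR adjusted p = 0.0213), and its call ended without anagen replicate 3 (0.058) or early telogen replicate 1, 3 or 4 (0.0569, 0.0674 and 0.0738). Lamc1 (-1.07) did not pass. Genes of collagen IV, the network-forming collagen of basement membranes, fell. Col4a5 was at 125, 86.99 and 72.5 CPM in anagen and 18.8, 21.7 and 28.3 CPM in early telogen (log2 fold change -1.92 ± 0.25, edgeR adjusted p = 0.0014). Col4a1 was at 978, 225 and 435 CPM in anagen and 125, 144 and 98.5 CPM in early telogen (log2 fold change -2.005 ± 0.53, edgeR adjusted p = 0.0324). The call for Col4a1 ended without anagen replicate 3 (0.0604) or early telogen replicate 1 (0.0878), 3 (0.0664) or 4 (0.1). The lower genes numbered 5, 4, 4 and 3 without these libraries in the same order.

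Cell-cell adhesion genes rose in 10 of 23 cases and fell in 3, with a median of 0.43 (11 and 3 with length offsets). Another 5 listed genes, Perp and Pkp1 to Pkp4, were named for anagen only and not tested. Desmoplakin, encoded by Dsp, links desmosomes to keratin, and was at 1971, 2264 and 2429 CPM in anagen and 5759, 6547 and 6386 CPM in early telogen (log2 fold change 1.63 ± 0.20, edgeR adjusted p = 0.00122). The desmosomal cadherin Dsg3 was at 333, 407 and 387 CPM in anagen and 912, 1116 and 1019 CPM in early telogen (log2 fold change 1.58 ± 0.19, edgeR adjusted p = 0.00119). Dsc3, its partner cadherin, rose by 1.08 ± 0.18, and the tight junction scaffold Tjp1 by 0.99 ± 0.15, and both groups stayed apart. Dsg1b, a desmoglein of differentiating layers, was among the genes with the largest rise, at 6.93, 4.91 and 6.55 CPM in anagen and 51.1, 55.2 and 64.99 CPM in early telogen (log2 fold change 3.36 ± 0.21, edgeR adjusted p = 7.51e-05). Gja1, which encodes the gap junction protein connexin 43, was at 3406, 1451 and 3037 CPM in anagen and 1069.6, 833 and 1169 CPM in early telogen (log2 fold change -1.22 ± 0.30, edgeR adjusted p = 0.0149), a call lost without early telogen replicate 3 (0.0561). Without that library none of the 3 lower genes of the list passed.

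Hair shaft and inner root sheath genes were the list with the lowest median, -4.11, or -3.84 with genes at 0 in early telogen placed at their bound. Of 20 tested, 13 fell and none rose, in both fits. Of the 20, 7 were at 0 in every early telogen library and passed the filter on low counts through anagen alone. For these a fall was the only possible direction. The list had 8 lower genes after thinning to the smallest library and 3 with a filter at a mean of at least 10 CPM. Krt35, a keratin of the hair cortex (chromosome 11, 100092193 to 100096241), was at 37.8, 67.7 and 7.57 CPM in anagen and 0, 0 and 0 CPM in early telogen, at least 356-fold lower in early telogen. Padi3, an enzyme that modifies the structural protein of the sheath, was at 16.1, 6.21 and 3.47 CPM in anagen and 0, 0 and 0 CPM in early telogen, at least 94.3-fold lower. The sheath keratin Krt73 was at 6.11, 12.5 and 2.71 CPM in anagen and 0, 0 and 0 CPM in early telogen, at least 65.1-fold lower. The sheath keratin Krt71 was at 24.3, 32.6 and 14.1 CPM in anagen and 1.07, 0.557 and 0.817 CPM in early telogen (log2 fold change -4.73 ± 0.42, edgeR adjusted p = 0.000379). Anagen replicate 2 was the highest for Krt35, Krt73 and Krt71. Anagen replicate 3 was the lowest anagen library for all 4 genes. The call for Krt35 ended without anagen replicate 1 (0.173) or early telogen replicate 1, 3 or 4 (0.0562, 0.0635 and 0.0608), with sex as a covariate (0.112) and with no filter on low counts (0.149). Pigment enzyme genes fell as well. The pigment enzyme Dct was at 35.9, 66.9 and 11.7 CPM in anagen and 2.06, 2.32 and 1.31 CPM in early telogen (log2 fold change -4.17 ± 0.72, edgeR adjusted p = 0.00837). Tyr, which encodes tyrosinase, was at 4.63, 6.56 and 3.41 CPM in anagen and 0.0894, 0 and 0 CPM in early telogen. Its ratio of anagen to early telogen was 136, with a counting interval of 24.3 to 5377. Of 7 tested melanocyte markers 3 fell and 1 rose, 6 of the 7 values were negative, and the median was -2.38. Their sums were 63.7 to 153 CPM in anagen and 87.6 to 136 CPM in early telogen. Their part in the change of the shaft genes was not tested. The riser was Mitf, a transcription factor at 10.2, 35.1 and 42.3 CPM in anagen and 77.03, 131 and 120.2 CPM in early telogen. Mitf thus made up most of each early telogen sum, and the sums do not show the fall of the other markers. Its call ended without anagen replicate 2 (0.0793) or early telogen replicate 3 (0.0878) or 4 (0.0909). In bulk RNA, fewer cells of a type and less RNA per cell cannot be told apart.

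Genes of the inner bulge and companion layer diverged, with 4 of 13 higher and 2 lower. Krt6a, the keratin that marks the inner bulge, was at 1468, 1787 and 2219 CPM in anagen and 3746, 3897 and 5028 CPM in early telogen (log2 fold change 1.35 ± 0.23, edgeR adjusted p = 0.00335). The connexin gene Gjb2 was at 499, 119 and 219.9 CPM in anagen and 16.4, 5.85 and 8.33 CPM in early telogen (log2 fold change -4.65 ± 0.68, edgeR adjusted p = 0.00566). Its relative Gjb6 was at 39.1, 14.6 and 19.7 CPM in anagen and 1.07, 0.464 and 0.327 CPM in early telogen (log2 fold change -5.08 ± 0.52, edgeR adjusted p = 0.000779). Both were lower in every early telogen library. Only 2 of the list were higher without early telogen replicate 3, and 4 were lower without anagen replicate 2. Of 23 epidermal differentiation genes 1 rose (4 with length offsets), namely Aloxe3, a lipoxygenase of the skin barrier, at 51.7, 23.2 and 29.9 CPM in anagen and 225, 154 and 144 CPM in early telogen (log2 fold change 2.45 ± 0.31, edgeR adjusted p = 0.00174). The early telogen libraries disagreed on this list: Krt10, a keratin of the suprabasal epidermis, was at 414, 586 and 262 CPM in anagen and 1419, 86.5 and 708 CPM in early telogen, and the number of higher genes was 5 without early telogen replicate 3 and 3 without anagen replicate 2. In the list of isthmus, infundibulum and sebaceous gland genes, 1 of 15 rose and 2 fell, and 4 fell without early telogen replicate 1.

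Energy metabolism held one of the largest changes among abundant genes. Ucp2 (chromosome 7, 100493337 to 100502020), an uncoupling protein of the mitochondrial inner membrane, was at 2475, 1593 and 2122 CPM in anagen and 134, 61.5 and 66.95 CPM in early telogen (log2 fold change -4.44 ± 0.33, edgeR adjusted p = 0.000221), and with length offsets the value was -4.40. Hk2, the hexokinase that starts glycolysis, was at 229.9, 289 and 277 CPM in anagen and 1028, 1826 and 999 CPM in early telogen (log2 fold change 2.43 ± 0.29, edgeR adjusted p = 0.00122). The glucose transporter Slc2a1 was at 407, 373 and 518 CPM in anagen and 704, 899 and 707 CPM in early telogen (log2 fold change 0.98 ± 0.20, edgeR adjusted p = 0.00747), so every early telogen library was higher for both. In the glycolysis and hypoxia list 6 of 24 tested genes rose and 4 fell, with a median of -0.20. Another 6 listed genes, among them Pfkl, Pgk1 and Pkm, were named for anagen only and not tested. Car12, a carbonic anhydrase at the cell surface, was at 161, 88.4 and 528 CPM in anagen and 16.4, 14.3 and 16 CPM in early telogen (log2 fold change -3.91 ± 0.73, edgeR adjusted p = 0.013). Anagen replicate 3 was the highest for Car12, and the early telogen libraries were close together. The lower genes numbered 1 without early telogen replicate 3 and 2 without anagen replicate 2 or early telogen replicate 1 or 4. With length offsets 6 were higher and 2 lower. Of 31 sterol and fatty acid genes 3 rose (1 without early telogen replicate 4) and 4 fell. The fatty acid desaturase gene Fads1 was at 69.7, 30.7 and 74.8 CPM in anagen and 9.65, 8.91 and 8.65 CPM in early telogen (log2 fold change -2.54 ± 0.32, edgeR adjusted p = 0.0014). Scd2, another desaturase, was at 52.7, 35.9 and 26.95 CPM in anagen and 5.36, 4.18 and 8.49 CPM in early telogen (log2 fold change -2.58 ± 0.33, edgeR adjusted p = 0.00142). Both were lower without overlap, and Fads2 fell by 4.86. In contrast Sqle, an oxygenase of sterol synthesis, was at 194, 129 and 153 CPM in anagen and 329, 424 and 418 CPM in early telogen (log2 fold change 1.45 ± 0.21, edgeR adjusted p = 0.00177).

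Genes of the respiratory chain and of cytoplasmic ribosomes, which have short transcripts, were lower in the planned fit in larger numbers than with length offsets. Of 76 respiratory chain genes 63 fell, with a median of -1.09, but 32 fell and 1 rose with offsets, with a median of -0.50. Genes with mitochondrial names in mt- changed less, with 2 lower and 0 higher of 12 tested and a median of -0.12. These summed to 14587 to 17304 CPM in anagen WT and 11377 to 13952 CPM in early telogen WT. Ndufa3, a subunit of complex I, was at 49.8, 45.2 and 48.9 CPM in anagen and 12.96, 5.29 and 9.798 CPM in early telogen (log2 fold change -2.24 ± 0.27, edgeR adjusted p = 0.00117), and was at -1.68 with offsets (adjusted p = 0.00171). Of 78 ribosomal protein genes 58 fell and 1 rose, with a median of -0.72, against 4 lower and 3 higher with a median of -0.17 with offsets. The counts of lower ribosomal genes were 33, 28, 22 and 19 without anagen replicate 2 and early telogen replicates 1, 3 and 4. Median transcript lengths were 1186 bases for the respiratory chain and 1076.5 bases for ribosomal proteins, against 3353 bases for all genes tested. Rpl24 went the other way, at 65.9, 73.2 and 72.5 CPM in anagen and 144, 170.2 and 159.7 CPM in early telogen (log2 fold change 1.30 ± 0.16, edgeR adjusted p = 0.00121). Ribosomal protein genes have processed copies elsewhere in the genome, and the counting could split reads between them, so their values are uncertain. The anagen file tallies reads without a unique position apart from genes, at 20.1% to 25.8% of tallied reads in WT, and how such reads were treated for early telogen is not given in the sources used here. Among such copies, Rps10-ps1 was at 0.0759, 0.0637 and 0.0331 CPM in anagen and 9.47, 5.85 and 11.1 CPM in early telogen, higher in every early telogen library. This gene does not stand for pseudogenes as a class. The 838 genes with pseudogene names in -ps, ribosomal or not, summed to 85.5 to 106 CPM in anagen WT and 82.4 to 125 CPM in early telogen WT. Of 28 tested, 7 rose and 4 fell, with a median of -0.33.

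Of 30 tested genes known to respond to tissue dissociation 4 rose and 2 fell, shares no higher than the 13.6% and 15.9% of all genes, with 2 higher without early telogen replicate 3 and 4 lower without anagen replicate 1. Their median was -0.30, with sums of 35714 to 60329 CPM in anagen and 41311 to 59613 CPM in early telogen. Cyr61, an immediate early matricellular gene, was at 3657, 2536 and 4047 CPM in anagen and 9880.2, 11339 and 11538 CPM in early telogen (log2 fold change 1.82 ± 0.24, edgeR adjusted p = 0.00137). The heat shock gene Hsph1 fell by 1.03 on the log2 scale. Of 27 genes of the unfolded protein and integrated stress responses 4 rose and 8 fell (6 and 3 with length offsets). Sesn2, a stress-induced inhibitor of growth signalling, was at 84.9, 68.4 and 75.6 CPM in anagen and 273, 236 and 262 CPM in early telogen (log2 fold change 1.89 ± 0.15, edgeR adjusted p = 0.000221). In contrast Ddit4, another stress-induced inhibitor of growth signalling, was at 103, 59.8 and 125 CPM in anagen and 24.4, 14.3 and 21.7 CPM in early telogen (log2 fold change -2.12 ± 0.28, edgeR adjusted p = 0.00163). The lower genes numbered 3 without early telogen replicate 3 and 5 without anagen replicate 1 or early telogen replicate 1 or 4. Interferon and antigen presentation genes had 1 riser, Nlrc5 (1.47 ± 0.29), and 3 lower of 23 (1 without anagen replicate 3 or early telogen replicate 1). Among the lower genes was Ifi27 (-0.82 ± 0.16), whose call ended with length offsets (edgeR adjusted p = 0.422). With these offsets 2 of the list were higher and 1 lower. Of 14 p53 targets 2 rose (1 without early telogen replicate 3) and 1 fell (2 without early telogen replicate 1 or 3, 0 without replicate 4). Among 25 chromatin modifiers 5 rose, 3 of them without anagen replicate 2 or early telogen replicate 3 or 4, and 1 fell, a call lost in each fit that dropped a library. With length offsets 4 were higher and 1 lower. Kdm6a, an H3K27 demethylase gene, was at 64.2, 37.7 and 46.7 CPM in anagen and 105, 134 and 83.9 CPM in early telogen (log2 fold change 1.27 ± 0.25, edgeR adjusted p = 0.00645). The Polycomb gene Suz12 was at 62.9, 59.4 and 61.02 CPM in anagen and 90.1, 93.2 and 90.5 CPM in early telogen (log2 fold change 0.72 ± 0.14, edgeR adjusted p = 0.00637). Early telogen was above anagen for both.

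Several circadian clock genes differed widely between libraries of the same stage. The clock is a feedback loop in which ARNTL with CLOCK or NPAS2 drives its own repressors and output factors such as DBP, TEF and HLF. Dbp was at 13.4, 132 and 18.8 CPM in anagen and 78.3, 1.86 and 2.94 CPM in early telogen. Hlf was at 8.92, 37.9 and 7.01 CPM in anagen and 29.1, 2.41 and 6.695 CPM in early telogen. Tef was at 56.97, 142 and 55.7 CPM in anagen and 151, 31.7 and 40.3 CPM in early telogen. Anagen replicate 2 and early telogen replicate 1 were the highest within their stages for all 3 genes. Arntl, at 44.8, 11.1 and 59.9 CPM in anagen and 44.3, 109.9 and 117 CPM in early telogen, was lowest in the same libraries within each stage. So was Npas2, at 9.17, 6.88 and 13.1 CPM in anagen and 5.18, 29.8 and 28.4 CPM in early telogen. No stage difference passed for these 5 genes, with edgeR adjusted p from 0.185 for Npas2 to 0.937 for Tef. Of 16 tested, 4 rose and none fell, with 2 higher without early telogen replicate 4 and 2 lower without early telogen replicate 1. Clock was at 49.2, 47.1 and 44.7 CPM in anagen and 80.4, 116 and 120.2 CPM in early telogen (log2 fold change 1.31 ± 0.20, edgeR adjusted p = 0.00227), without overlap. The nuclear receptor Rora was at 55.4, 78.2 and 71.6 CPM in anagen and 116, 124 and 138 CPM in early telogen (log2 fold change 1.02 ± 0.18, edgeR adjusted p = 0.00393), a call lost with length offsets (0.0603). The repressor Cry1 was at 40.6, 62.3 and 30.95 CPM in anagen and 73.6, 144 and 154 CPM in early telogen (log2 fold change 1.61 ± 0.38, edgeR adjusted p = 0.0191), and its call ended without anagen replicate 1 (0.0672) or early telogen replicate 3 (0.0591) or 4 (0.0639). The hour of collection is not given in the sources used here, and its part in these values was not tested.

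**Figure D4:**
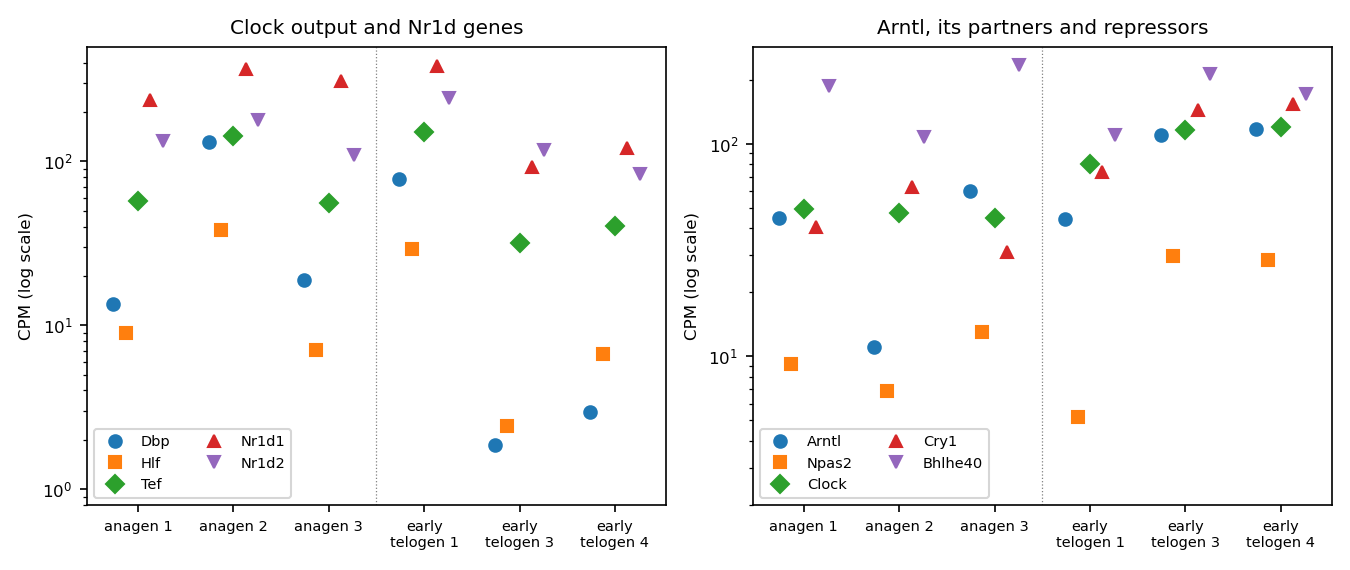
CPM on log axes for 5 output and Nr1d genes (left) and for Arntl with 4 other clock genes (right) in each of the 6 wild-type libraries, with one symbol per gene. Dbp is at 132 CPM in anagen replicate 2 and 78.3 CPM in early telogen replicate 1 and at 1.86 to 18.8 CPM in the others, while Arntl is lowest within each stage in these libraries, at 11.1 and 44.3 CPM.

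Further genes with the largest changes included several outside the lists. Cmah (chromosome 13, 24327404 to 24477377), which makes the sialic acid Neu5Gc in mice, was at 293, 81.8 and 206 CPM in anagen and 0.447, 0.278 and 0.163 CPM in early telogen (log2 fold change -9.09 ± 0.70, edgeR adjusted p = 0.000779). Dio3, the deiodinase that inactivates thyroid hormone, was at 12.9, 2.45 and 12.96 CPM in anagen and 0, 0 and 0 CPM in early telogen, at least 94.1-fold lower. Trf, which encodes transferrin, was at 8.07, 3.22 and 13.5 CPM in anagen and 0, 0 and 0 CPM in early telogen, at least 76.6-fold lower. Foxe1, a forkhead factor of the follicle, was at 25.4, 4.37 and 15.5 CPM in anagen and 0, 0 and 0.163 CPM in early telogen, a ratio of 477 with a counting interval of 85.5 to 18857. All 4 were at or near 0 in every early telogen library. Dio3 and Trf, at 0 in each, passed the filter on low counts through anagen alone, so a fall was their only possible direction. Among the genes with the largest rise, the carboxypeptidase Cpa4 was at 103, 60.5 and 70.5 CPM in anagen and 1117, 968 and 404 CPM in early telogen (log2 fold change 3.55 ± 0.42, edgeR adjusted p = 0.0017). Kcnma1, a calcium-activated potassium channel, was at 1.61, 2.96 and 3.34 CPM in anagen and 24.1, 19.8 and 16.5 CPM in early telogen (log2 fold change 3.07 ± 0.33, edgeR adjusted p = 0.000595). Each early telogen library was higher for both. Tnnt2, a troponin known from heart muscle, was at 1.54, 1.21 and 3.803 CPM in anagen and 14.5, 18.7 and 12.4 CPM in early telogen (log2 fold change 2.96 ± 0.45, edgeR adjusted p = 0.0025). The matricellular gene Thbs1 was abundant, at 1936, 515 and 3499.5 CPM in anagen and 14370, 13024 and 13040 CPM in early telogen (log2 fold change 2.91 ± 0.63, edgeR adjusted p = 0.016), and lost its call without anagen replicate 1 (0.0547). Cck, which encodes the peptide cholecystokinin, was at 0.171, 0.542 and 3.01 CPM in anagen and 22.6, 23.8 and 22.05 CPM in early telogen (log2 fold change 4.39 ± 0.97, edgeR adjusted p = 0.0194), a call that ended without anagen replicate 2 (0.0624) or early telogen replicate 4 (0.0554). The lowest fitted log2 fold change among the genes tested was that of mmu-mir-6236, at least 1197-fold lower. It was at 0 in all early telogen libraries, KO included, so it passed the filter through anagen alone and could only fall. The libraries were made from RNA selected with oligo(dT), and whether the reads of mmu-mir-6236 stem from the mature microRNA was not tested. Its mature sequence in RefSeq (build GRCm38.p6, chr9:110281353-110281371, plus), with the seed of bases 2 to 8 in capitals, is shown only to identify the entry.
mmu-miR-6236: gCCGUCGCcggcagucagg

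Markers of cells outside the gate were read in all libraries, and their part in the stage differences was not tested. Of 13 tested fibroblast and dermal papilla markers 2 rose (0 without anagen replicate 3 or with length offsets) and 1 fell, with sums of 1104 to 2556 CPM in anagen and 915 to 2526 CPM in early telogen. Endothelial and pericyte markers, with 2 higher (4 and 0 without early telogen replicates 3 and 4) and 1 lower of 14, summed to 46.7 to 114 CPM and 27.6 to 62.4 CPM, and immune markers, with none called of 13, to 39.4 to 237 CPM and 25.7 to 168 CPM. Early telogen replicate 3 was the lowest early telogen library in each of these sums. The immune gene Cd3e was at 0 there, and Pecam1, an endothelial gene, was at 0.0928 CPM. Of 5 Schwann cell and neuron markers 1 rose and 1 fell, with sums of 31.5 to 53.5 and 52.6 to 65.9 CPM. Muscle (4 tested), adipocyte (2) and red blood cell (3) markers gave no call. Muscle sums were 262, 39.8 and 23.6 CPM in anagen and 26.0, 12.3 and 39.8 CPM in early telogen, so anagen replicate 1, which was also the highest for mitosis genes, stood apart. The smooth muscle gene Tagln made up most of its sum, at 250.2, 29.7 and 11.5 CPM in anagen and 9.74, 5.29 and 9.798 CPM in early telogen. Red blood cell markers had sums of 4.49 to 13.9 CPM in anagen and 0.464 to 3.66 CPM in early telogen, and the adipocyte gene Adipoq was at 0 in 5 of 6 libraries.

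The WT stage change was set against that of the KO cells by testing the difference of the changes over all 12 libraries. Of 13193 genes tested, 19 (0.144%) differed, 2 with a higher and 17 with a lower change in WT. Wif1 was at 15.2 ± 6.24 CPM in anagen WT (n = 3) and 28.2 ± 10.8 CPM in early telogen WT (n = 3), and at 5.32 ± 0.826 CPM in anagen KO (n = 2) and 175 ± 37.4 CPM in early telogen KO (n = 4). The log2 difference of the changes was -4.06 (edgeR adjusted p = 0.00585). Col6a1, a chain of collagen VI, was at 182 ± 70.2 and 314 ± 82.03 CPM in WT and at 13.4 ± 3.91 and 217 ± 44.4 CPM in KO, in the order anagen and early telogen (difference -3.17, edgeR adjusted p = 0.0229). For both genes the KO anagen level was the lowest of the 4 groups. The count of 19 was 0 without anagen KO replicate 2, 1 without anagen KO replicate 1 and 55 without anagen WT replicate 1. It was 2, 3, 7, 7 and 8 without early telogen WT replicates 3, 4 and 1 and KO replicates 5 and 3. Both anagen KO libraries were female, and the count was 6 with sex as a covariate.

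**Figure D5:**
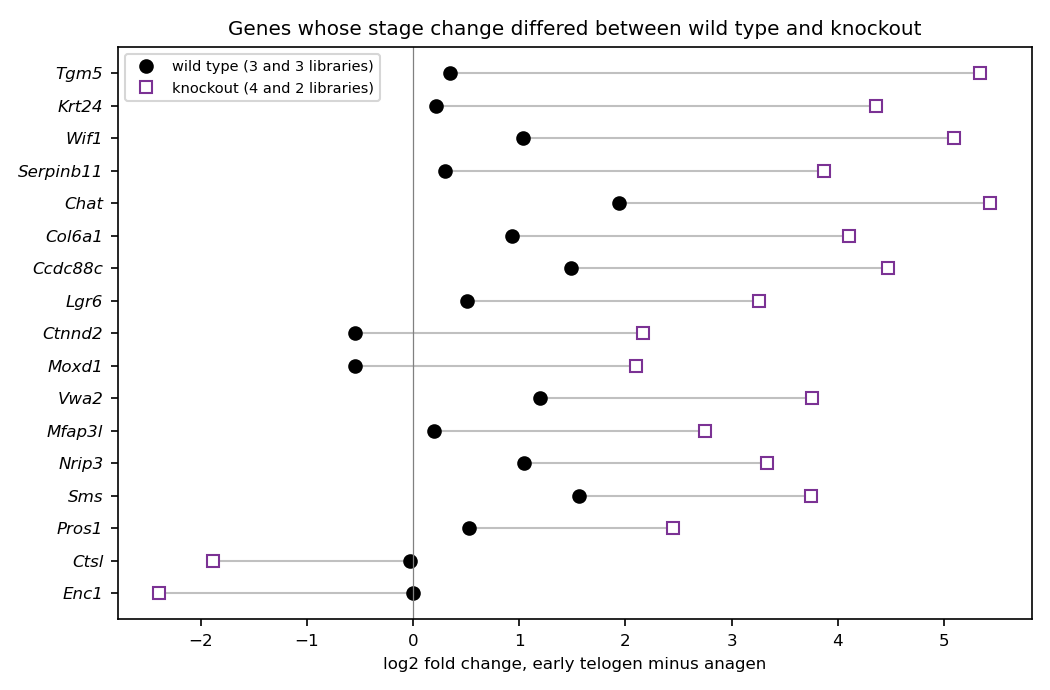
For 17 of the 19 genes whose stage change differed between genotypes, filled circles give the log2 fold change (early telogen minus anagen) in wild type and open squares that in knockout, from 1 fit of all 12 libraries. In 15 of these genes the wild-type change lies below the knockout change, as for Wif1 at 1.03 against 5.09, and in Enc1 and Ctsl it lies above.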

How the data were processed

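RNA was read in sorted stem cells of 3 anagen and 3 early telogen WT samples, with 6 KO samples for checks and for the WT against KO comparison. The authors deposited gene counts in 2 tables, made with TopHat2 and HTSeq on mm10, per the submitters' processing notes (versions are not given in the sources used here). RNA was selected with oligo(dT) and made into directional libraries, per the labels' protocols. The counting option for strand is not given there, so antisense and overlapping genes are uncertain. In the early telogen file, 3 broken lines were left out and 27 names had become dates. The members, gene lists and tests were chosen with earlier results of these data known.

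Genes named in both tables were filtered with filterByExpr (minimum count 10, minimum total 15), scaled by TMM and tested with edgeR 4.0.16 in R 4.3.3 (quasi-likelihood, robust, Benjamini-Hochberg, threshold 0.05). The SE of a log2 fold change was derived from its F statistic. Code was tested on simulated data. The rule for named genes took, per direction, the 15 largest changes (called, at least 5 CPM in a group, no overlap) and the 8 most abundant calls of at least 1 on the log2 scale, the 4 lowest p per list, and a fixed set. It gave 176 genes, and other list members named were chosen after their values were seen. Counting intervals are exact at 95%, and floors of 3 counts over a group cover counting error only. Transcript lengths are from GENCODE M21 and sequences from RefSeq. Alternatives were RLE and upper-quartile scaling, DESeq2, other filters, all 12 libraries, sex, thinning to the smallest library, dropping each library, and length offsets, the last added after seeing the data. Some genes tested and counted are not reported here by name.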

Additional observations from a re-analysis of the deposited data

Results flagged for a closer look

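The stage change (early telogen minus anagen) differed between WT and KO cells in 19 genes, of which 17 are given here, by a test of the difference over all 12 libraries, and each value here is the WT change minus the KO change on the log2 scale, with the edgeR adjusted p. The lowest p-values belonged to Wif1 (-4.06, 0.00585), a WNT inhibitor, and Tgm5 (-4.99, 0.00585), a transglutaminase. Vwa2 (-2.55) followed at 0.0095, and Moxd1 (-2.65) at 0.0163. Values of Col6a1 (-3.17), Ccdc88c (-2.99), Krt24 (-4.15), Serpinb11 (-3.57), Chat (-3.50), Ctnnd2 (-2.71) and Nrip3 (-2.29) were negative at 0.0229, and Enc1 (2.39) was positive at the same p. The remainder were Lgr6 (-2.75, 0.0406), Pros1 (-1.93), Ctsl (1.86) and Sms (-2.19), the last 3 at 0.0428, and Mfap3l (-2.55, 0.0438).

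Tgm5 was at 214 ± 103 CPM in anagen WT and 245 ± 28.8 CPM in early telogen WT, and at 5.56 ± 1.09 and 212 ± 47.5 CPM in KO. The WT means differed by less than the SD in anagen, and the KO anagen level (n = 2) was far below the other groups.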

How the results depend on the processing

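No paired analysis was possible because the anagen samples carry no replicate number in their labels. The count of lower genes, 2024, was 1181 with length offsets, and in fits that dropped a library it ranged from 1257 to 1699. The count of higher genes, 1724, ranged from 1055 to 1630 in those fits, lowest without early telogen replicate 4. Other settings kept both counts within 1.5 times, with 1330 (sex as a covariate) to 2157 (DESeq2) higher genes and 1456 (sex as a covariate) to 2450 (no filter on low counts) lower genes. Calls of named genes also ended with no filter for Grem1 (0.109), Etv4 (0.0836), Epgn (0.0811), Lamb1 (0.0823), Col4a1 (0.117), Mitf (0.128), Cry1 (0.0691), Thbs1 (0.0816) and Cck (0.0794). With sex as a covariate they ended for Pcna (0.076), Epgn (0.053), Sostdc1 (0.0615) and Tcf7l1 (0.0561). With all 12 libraries they ended for Axin2 (0.0656), Pcna (0.059) and Sostdc1 (0.107), and for Axin2 also after thinning (0.0618). Each value is an edgeR adjusted p.

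The 19 genes that differed between genotypes were 409 with no filter on low counts, 154 with DESeq2, 6 with sex as a covariate and 0 to 55 when a library was dropped. Ranges without a library were -0.48 to 0.53 for Foxc1, -0.79 to 0.34 for Ly6a, -0.26 to 0.0784 for Lhx2, -0.33 to 0.27 for Ccnd1, -0.12 to 0.40 for Gli1 and -4.39 to 0.89 for Dbp on the log2 scale, and none of these reversals passed. Signs also turned for Foxc1 with sex as a covariate (0.17), for Ly6a with upper-quartile factors (-0.0173), no filter (-0.0422) and sex (-0.0924), for Lhx2 with length offsets (0.15), and for Ccnd1 with RLE factors (0.0275), all 12 libraries (0.0064), DESeq2 (0.0296) and length offsets (0.0627). The cause was not tested. Early telogen libraries held fewer counts, and thinning all libraries to the smallest gave 1778 higher and 1725 lower genes.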
